A study of Rattus norvegicus albus with 14 samples.

Results

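The transcripts of 10 secreted cytokines were followed in cultured rat heart muscle cells exposed to rosiglitazone for 0.5, 24 or 48 h. They were the interleukin 1 family members Il1a, Il1b, Il1rn and Il33, the glycoprotein 130 cytokines Il6, Il11 and Lif, tumour necrosis factor (Tnf), and the colony-stimulating factors Csf1 and Csf3. Members were taken from the deposited count tables by gene symbol, and each of the 10 matched 1 Ensembl gene identifier among the 32545 genes listed. The groups were 1 library of cells given 1% DMSO for 0.5 h, and 2 libraries each of cells given 10 µmol/L rosiglitazone with 1% DMSO for 0.5, 24 and 48 h. Rosiglitazone is a thiazolidinedione that activates the nuclear receptor PPAR gamma. All groups were neonatal ventricular myocytes from 1-day-old Sprague-Dawley rats, preplated to deplete fibroblasts, pooled, plated on fibronectin and kept without serum in a medium with insulin, transferrin and selenium. Cells were pooled before plating, and the labels do not state that libraries of the same time point came from separate cultures; p-values therefore reflect a spread that may be technical only. Vehicle cells of the later times were not analysed here, so drug exposure and time in culture cannot be told apart at 24 and 48 h.

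These cytokines act through separate receptor systems. Il1a and Il1b both bind the interleukin 1 receptor with its accessory protein and switch on NF-kB, and Il1rn encodes the antagonist that occupies the same receptor without signalling. Il33 is a nuclear alarmin released from damaged cells, and its receptor ST2, encoded by Il1rl1, is induced in strained heart muscle. Il6, Il11 and Lif each bind a receptor of their own and share the signalling subunit gp130, encoded by Il6st, which activates JAK kinases and STAT3. In the heart this pathway is known for myocyte growth and survival signals and for fibroblast activation. Csf1 sustains macrophages through Csf1r, and Csf3 drives the production of neutrophils through Csf3r.

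The 7 libraries held between 10886559 and 28074620 counts, and the shallowest was replicate 2 of 48 h; the other 6 held at least 24341710. Values below are CPM, the share of a library's counts on a common scale, with library sizes adjusted by the TMM method, which sets the bulk of genes level between libraries. Replicate 1 of 48 h stood apart. The summed level of 9 cardiomyocyte markers was 6326 CPM in the DMSO library, 10350 and 10200 CPM at 0.5 h of rosiglitazone, 8826 and 2088 CPM at 24 h, and 226 and 1407 CPM at 48 h, the 226 CPM being that of replicate 1. All 9 markers were detected in every library. The summed level of 9 fibroblast markers was 51750 CPM in the DMSO library, 50170 and 51640 CPM at 0.5 h of rosiglitazone, 35140 and 32650 CPM at 24 h, and 17360 and 33670 CPM at 48 h, so transcripts of cells that preplating was meant to remove were present throughout. Much of the fibroblast sums was Col1a1 and Col3a1, with 26090 and 20160 CPM in the DMSO library. In replicate 1 of 48 h the largest was Dcn, with 8477 CPM against 4750 CPM of Col1a1. Of these 9 markers 3, Dcn, Lum and Pdgfra, had higher means at 48 h than at 0.5 h, and the rest lower. Of the 9 lymphocyte and mast cell markers, 7 to 9 were at 0 in each library. The 8 neutrophil markers summed to between 0.732 and 3.92 CPM.

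Il6, Il11 and Csf3 had their highest levels in both 48 h libraries, above all 5 others, and Il1a, Il1b, Lif and Csf1 had their highest level in replicate 1 of 48 h. Csf3 averaged 54.3 ± 70.2 CPM at 48 h and 0.123 ± 0.174 CPM at 0.5 h of rosiglitazone (SD, n = 2 each). Il6 averaged 31.5 ± 37.9 CPM at 48 h and 0.845 ± 0.398 CPM at 0.5 h. The 2 libraries of 48 h differed widely. None of the 9 members tested passed an adjusted p of 0.05 in edgeR's quasi-likelihood test in any of the 4 comparisons, nor when either 48 h library was left out. Tnf had no count in any library. Il33 and Il1rn were highest in the DMSO library, as the plot of each cytokine by library shows.

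**Figure D1:**
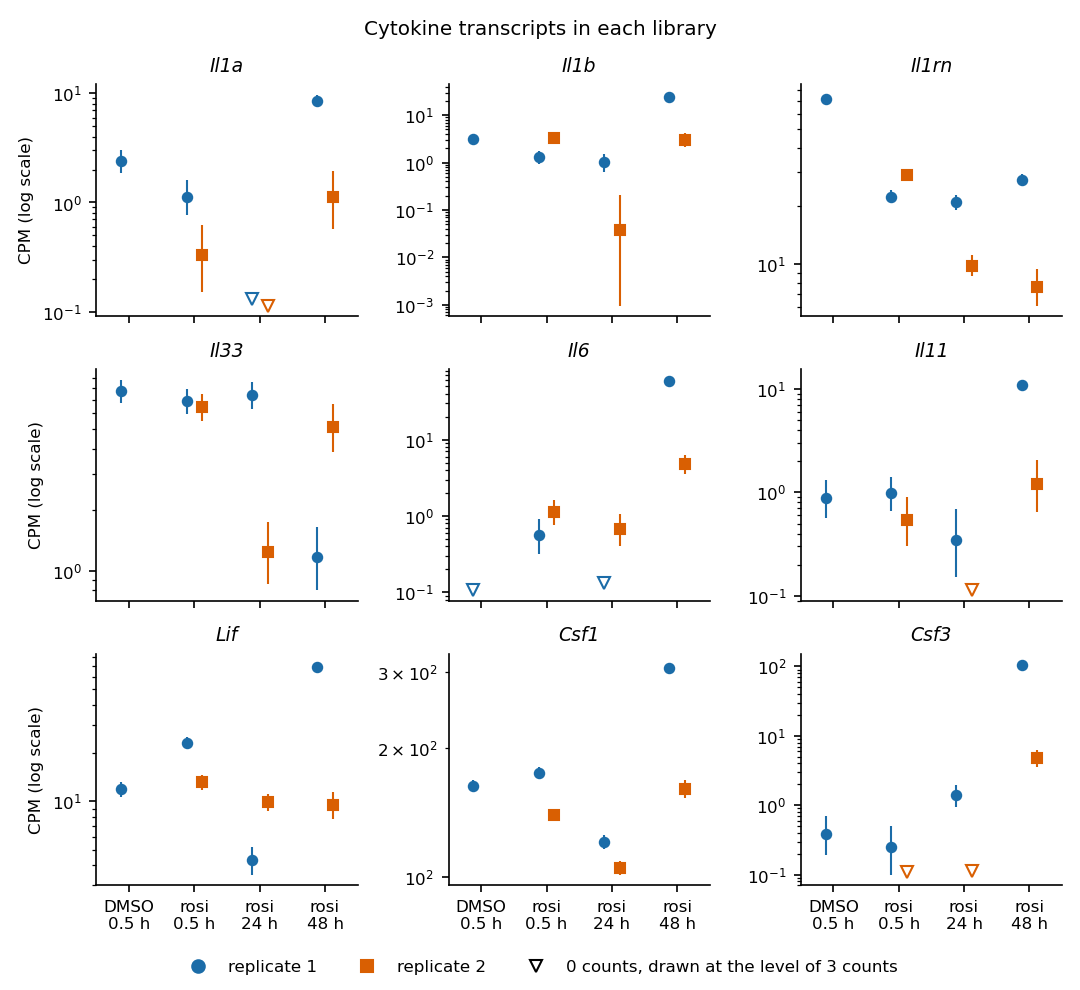
CPM of the 9 detected cytokines (log scale) in the 7 libraries, 1 for DMSO and 2 for each time of rosiglitazone; bars are exact 95% Poisson intervals, which cover counting error only, and open triangles mark 0 counts at the level of 3 counts. Replicate 1 of 48 h is the highest library in 7 of the 9 panels, and the 2 libraries of 48 h lie far apart for Csf3 (104 and 4.74 CPM) and Il6 (58.3 and 4.74 CPM).

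Of the interleukin 1 agonists, Il1a had no count at 24 h and Il1b had 23 reads in replicate 1 and 1 in replicate 2. Il1a (ENSRNOG00000004575) had 2.40 CPM in the DMSO library, 1.13 and 0.327 CPM at 0.5 h of rosiglitazone, 0 and 0 CPM at 24 h, and 8.49 and 1.12 CPM at 48 h. Both 24 h libraries were thus below both 0.5 h libraries, and both 48 h libraries above both 24 h libraries, while 48 h and 0.5 h overlapped. Set against 3 counts in the shallowest library of the group at 0, Il1a was at least 5.55-fold lower at 24 h than at 0.5 h, and at least 36.6-fold higher at 48 h than at 24 h. Without replicate 1 of 0.5 h the first bound was 2.49-fold, and without replicate 1 of 48 h the second was 8.51-fold. In edgeR's quasi-likelihood test with Benjamini-Hochberg adjustment over all 15655 genes tested, the adjusted p was 0.194 for 24 h against 0.5 h and 0.291 for 48 h against 24 h.

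Il1b (ENSRNOG00000004649), the agonist that caspase 1 cuts into its active form, had 3.18 CPM in the DMSO library, 1.30 and 3.23 CPM at 0.5 h, 1.01 and 0.0377 CPM at 24 h, and 24.7 and 3.07 CPM at 48 h. The second value at 24 h was a single read, with an exact 95% Poisson interval of 0.000954 to 0.21 CPM. Again both 48 h libraries lay above both 24 h libraries, and replicate 2 of 48 h lay below the higher 0.5 h library. The log2 fold change fitted by edgeR was 4.75 ± 1.51 (SE) between 48 h and 24 h, with an adjusted p of 0.418. Without replicate 1 of 48 h it was 2.54.

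The antagonist Il1rn (ENSRNOG00000005871) had another order. It had 72.1 CPM in the DMSO library, 22.3 and 28.8 CPM at 0.5 h of rosiglitazone, 20.9 and 9.80 CPM at 24 h, and 27.2 and 7.62 CPM at 48 h. All 6 rosiglitazone libraries were below the DMSO library, and the 3 rosiglitazone times overlapped except that both 24 h libraries were below both 0.5 h libraries. Between rosiglitazone and DMSO at 0.5 h the levels were 25.6 ± 4.56 CPM (SD, n = 2) and 72.1 CPM (n = 1), a fitted log2 fold change of -1.50 ± 0.72 (SE) with an edgeR adjusted p of 1. When only the 3 libraries of these groups were fitted, Il1rn passed the threshold. The spread in that fit came from the 2 rosiglitazone libraries alone, since DMSO had 1 library. It cannot stand for the spread of DMSO cultures, so the p-value of that fit is not given.

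Macrophage markers, like Il1rn, were lower with rosiglitazone than in the 1 DMSO library at 0.5 h. The summed level of 14 macrophage markers was 325 and 449 CPM with rosiglitazone and 1104 CPM with DMSO. All 14 were lower in both rosiglitazone libraries (31.8% of all genes), and edgeR called 0 of them. Lyz2, which encodes the lysozyme of macrophages, averaged 116 CPM with rosiglitazone and 356 CPM with DMSO. In bulk RNA, fewer macrophages and less RNA per macrophage cannot be told apart, and the part of macrophage RNA in the Il1rn values was not tested. At 24 h the same 14 markers summed to 523 and 180 CPM, and at 48 h to 225 and 418 CPM. Much of these sums was Lyz2, with 339 and 105 CPM at 24 h and 92.6 and 283 CPM at 48 h. At 48 h Cd68, Adgre1, C1qc, Cd14 and Ptprc were higher in replicate 1, and the other markers in replicate 2. Il1rn, Il1a and Il1b were lower in replicate 2 of 48 h than in replicate 1. On the RefSeq annotation of the assembly GRCr8, Il1rn overlaps Il36b, whose rows held 23 counts in the DMSO library, 0 and 16 at 0.5 h and 0 in the later 4 libraries; because the strand setting of the counting is not given in the sources used here, reads of overlapping genes cannot be told apart. Il1a, Il33 and Csf1 each overlap a further locus there that has no gene name.

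Counted within a library, antagonist reads outnumbered agonist reads in the DMSO, 0.5 h and 24 h libraries and in replicate 2 of 48 h, and were outnumbered by them in replicate 1 of 48 h. There were 12.9 Il1rn reads per read of Il1a plus Il1b in the DMSO library, 9.19 and 8.08 at 0.5 h of rosiglitazone, 20.8 and 260 at 24 h, and 0.819 and 1.82 at 48 h. Both 48 h ratios were below the other 5. The ratio of 260 rests on 1 agonist read, and the ratio was chosen after the values were seen, so it is given without a test and not corrected for transcript length.

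Il33 (ENSRNOG00000016456) was the member whose 48 h libraries did not favour replicate 1. It had 7.71 CPM in the DMSO library, 6.90 and 6.43 CPM at 0.5 h, 7.39 and 1.24 CPM at 24 h, and 1.17 and 5.11 CPM at 48 h. Replicate 2 of 24 h and replicate 1 of 48 h were low, and the other 5 libraries lay between 5.11 and 7.71 CPM. The 2 low libraries belonged to different times. In each time the low one also had the lower sum of cardiomyocyte markers (2088 against 8826 CPM at 24 h, 226 against 1407 CPM at 48 h). Across times the order differed: replicate 2 of 48 h had a lower sum than replicate 2 of 24 h (1407 against 2088 CPM) but more Il33 (5.11 against 1.24 CPM). The part of cell composition in the Il33 values was not tested. The fitted log2 fold change between 48 h and 0.5 h was -1.11 ± 1.00 (SE), with an edgeR adjusted p of 0.556.

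The receptor gene of Il33 passed the test. Il1rl1, which encodes ST2 in a membrane and a soluble decoy form, had 462 CPM in the DMSO library, 623 and 538 CPM at 0.5 h of rosiglitazone, 33.5 and 11.5 CPM at 24 h, and 2.75 and 8.74 CPM at 48 h. The 4 later libraries were all at least an order of magnitude below the 3 early ones. Il1rl1 fell at 48 h relative to 0.5 h, to 5.74 CPM against 580 CPM, a log2 fold change of -6.70 ± 0.79 (SE) with an edgeR adjusted p of 0.0106. Between 24 h and 0.5 h it was -4.69 ± 0.71, with an adjusted p of 0.0708. Without replicate 1 of 48 h the 48 h value was -6.09 with an adjusted p of 0.0712, and without replicate 1 of 0.5 h it was -6.60 with an adjusted p of 0.0611, within a range of 0.00328 to 0.0712 when each library was left out in turn.

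Among the gp130 cytokines, Il6 (ENSRNOG00000010278) had no count in the DMSO library, 0.564 and 1.13 CPM at 0.5 h of rosiglitazone, 0 and 0.678 CPM at 24 h, and 58.3 and 4.74 CPM at 48 h. These CPM stood for 0 reads with DMSO, 16 and 31 at 0.5 h, 0 and 18 at 24 h, and 1593 and 51 at 48 h. Both 48 h libraries were above every other library. With the 1 DMSO library taken at 3 counts, Il6 at 0.5 h of rosiglitazone was at least 7.97-fold higher than with DMSO. Without replicate 2 of 0.5 h this bound was 5.31-fold. Both bounds cover counting error only, and edgeR did not call the difference (unadjusted p of 0.0753). At 48 h the mean was 92.9-fold that at 24 h and 37.3-fold that at 0.5 h, with fitted log2 fold changes of 6.49 ± 1.65 and 5.22 ± 1.53 (SE) and edgeR adjusted p of 0.323 and 0.0912. Without replicate 1 of 48 h these log2 fold changes were 3.75 and 2.45.

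Il11 (ENSRNOG00000017386), a gp130 cytokine known from activated cardiac fibroblasts, had 0.884 CPM in the DMSO library, 0.986 and 0.545 CPM at 0.5 h, 0.350 and 0 CPM at 24 h, and 11.0 and 1.21 CPM at 48 h. Both 24 h libraries were the lowest and both 48 h libraries the highest. Replicate 2 of 48 h held 13 Il11 reads, with an exact 95% Poisson interval of 0.644 to 2.07 CPM that includes the DMSO value. The log2 fold change between 48 h and 24 h was 5.12 ± 1.82 (SE), with an edgeR adjusted p of 0.496, and it was 2.75 without replicate 1 of 48 h.

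Lif (ENSRNOG00000007002), which signals to myocytes through Lifr and gp130, had 11.9 CPM in the DMSO library, 23.3 and 13.2 CPM at 0.5 h, 4.28 and 9.91 CPM at 24 h, and 68.6 and 9.48 CPM at 48 h. Both 0.5 h rosiglitazone libraries were above DMSO and both 24 h libraries below them. At 48 h replicate 2 lay inside the 24 h range, so the higher mean of 39.0 ± 41.8 CPM (SD, n = 2), against 7.10 ± 3.98 CPM at 24 h, rests on replicate 1. The log2 fold change between 48 h and 0.5 h was 1.11 ± 0.85 (SE), with an edgeR adjusted p of 0.484, and it turned to -0.98 without replicate 1 of 48 h.

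Csf1 (ENSRNOG00000018659) was the member whose replicates lay closest at 48 h. It had 163 CPM in the DMSO library, 175 and 140 CPM at 0.5 h, 121 and 105 CPM at 24 h, and 306 and 160 CPM at 48 h. Both 24 h libraries were the lowest, and replicate 2 of 48 h lay within the 0.5 h range. At 48 h the mean was 233 ± 103 CPM, against 113 ± 11.1 CPM at 24 h (SD, n = 2 each), a log2 fold change of 1.05 ± 0.35 (SE) with an edgeR adjusted p of 0.461. Without replicate 1 of 48 h it was 0.48, and against 0.5 h the value of 0.57 turned to -0.01.

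Csf3 (ENSRNOG00000008525), the granulocyte factor, was the member whose 48 h libraries differed most. It had 0.389 CPM in the DMSO library, 0.247 and 0 CPM at 0.5 h, 1.40 and 0 CPM at 24 h, and 104 and 4.74 CPM at 48 h. The reads behind these values were 11 with DMSO, 7 and 0 at 0.5 h, 32 and 0 at 24 h, and 2840 and 51 at 48 h. The 2 sequencing splits of replicate 1 of 48 h held 1451 and 1389 of its Csf3 reads, so the high value was in both. The mean at 48 h was 441-fold that at 0.5 h, with a log2 fold change of 8.72 ± 2.24 (SE) and an edgeR adjusted p of 0.0636. The p-value lay on either side of the threshold by method: DESeq2 gave an adjusted p of 0.0356, and over all alternatives it ranged between 0.000406 and 0.441. Without replicate 1 of 48 h the log2 fold change was 5.16.

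Tnf (ENSRNOG00000055156) had 0 counts in all 7 libraries, which allows up to 0.106 CPM in the deepest and up to 0.279 CPM in the shallowest at 3 counts each. It was not tested, and whether reads of this gene could be counted in these tables was not tested. Its receptors were present. Tnfrsf1a, the broadly expressed receptor, had 183 CPM in the DMSO library, 150 and 175 CPM at 0.5 h, 287 and 207 CPM at 24 h, and 227 and 299 CPM at 48 h. All 4 later libraries were above the 3 early ones, with a log2 fold change of 0.70 ± 0.29 (SE) between 48 h and 0.5 h and an edgeR adjusted p of 0.208. Tnfrsf1b, the second receptor, averaged 26.2 CPM at 48 h and 16.4 CPM at 0.5 h, with an edgeR adjusted p of 0.271. The DMSO library had 23.8 CPM of Tnfrsf1b.

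The spread between the 2 libraries of 48 h was itself wide for these genes. Replicate 1 was 21.9-fold above replicate 2 for Csf3, 12.3-fold for Il6, 9.11-fold for Il11, 8.05-fold for Il1b, 7.61-fold for Il1a and 7.23-fold for Lif. For Il1rn it was 3.57-fold and for Csf1 1.91-fold above, and Il33 stood at 0.229 of replicate 2. Thus 6 of the 9 members tested were at least 4-fold higher in replicate 1, as were 5.56% of all genes tested. Replicate 1 of 48 h was the highest of the 7 libraries for 7 of 9 members and for 14.3% of all genes, and both 48 h libraries were above all 5 others for 3 of 9 members and 8.62% of all genes. The other times did not fully share this order. At 24 h, Il1b, Il1rn, Il33, Il11, Csf1 and Csf3 were higher in replicate 1 and Il6 and Lif in replicate 2. The 24 h spread was also wide for some members: 26.7-fold for Il1b, with 1 read in replicate 2, and 5.94-fold for Il33. Csf3 had 32 and 0 reads there. At 0.5 h no ratio between 2 detected values passed 3.45-fold. Over all genes the SD of the log2 difference between replicates was 0.812 at 0.5 h, 1.6 at 24 h and 1.23 at 48 h.

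**Figure D2:**
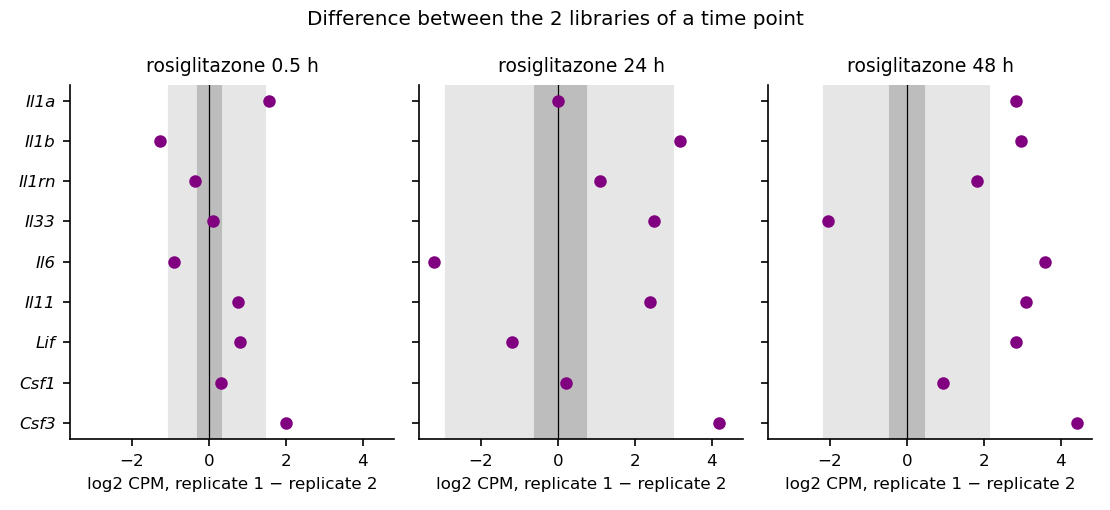
Difference in log2 CPM (prior count of 2) between replicate 1 and replicate 2 at each rosiglitazone time; dark and light bands hold the middle 50% and 90% of all 15655 genes tested, and points are the 9 cytokines. At 48 h 6 points, Il1a, Il1b, Il6, Il11, Lif and Csf3, lie beyond the upper edge of the light band at 2.15, while Il33 lies near its lower edge.

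Counted by comparison, rosiglitazone against DMSO at 0.5 h gave 0 of 9 members past an edgeR adjusted p of 0.05 (0% of all genes tested), 0 at an unadjusted p under 0.05 (0.607%) and 0 in DESeq2 (0.0108%). Both rosiglitazone libraries were above the DMSO library for 2 members, Il6 and Lif (30.2% of all genes), and below it for 4, namely Il1a, Il1rn, Il33 and Csf3 (31.8%). The median log2 fold change was -0.21 over the members and 0.01 over all genes. Since similar shares of all genes did so, these counts say nothing particular about the cytokines.

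Between 24 h and 0.5 h of rosiglitazone, edgeR called 0 of 9 members (0.0958% of all genes), 1 had an unadjusted p under 0.05 (15.7%), and DESeq2 called Il1a (8.44%). Both 24 h libraries were below both 0.5 h libraries for 6 members, Il1a, Il1b, Il1rn, Il11, Lif and Csf1 (28.9% of all genes), and above them for none (21.2%). The median log2 fold change was -1.27 over the members and -0.03 over all genes.

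Between 48 h and 24 h, edgeR called 0 of 9 members (0% of all genes), while 7 had an unadjusted p under 0.05 (8.14%), all with a higher level at 48 h (2.8%). DESeq2 called Il1a, Il1b and Il11 (3.4%). Both 48 h libraries were above both 24 h libraries for 6 members, Il1a, Il1b, Il6, Il11, Csf1 and Csf3 (14.5%), and below them for none (14.6%). The median log2 fold change was 4.75 over the members and -0.01 over all genes; with Il1a at its bound the median stayed at 4.75.

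Between 48 h and 0.5 h, edgeR called 0 of 9 members (6.59% of all genes), 2 had an unadjusted p under 0.05, Il6 and Csf3 (22.9%), and DESeq2 called Csf3 (17.2%). Both 48 h libraries were above both 0.5 h libraries for Il6, Il11 and Csf3 (28.3%) and below them for Il33 (34.4%). The median log2 fold change was 2.62 over the members and -0.07 over all genes. The 24 h libraries enter both comparisons between neighbouring times, the 48 h libraries both comparisons of 48 h, and the 0.5 h rosiglitazone libraries all except that of 48 h with 24 h, so the 4 comparisons are not independent.

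**Figure D3:**
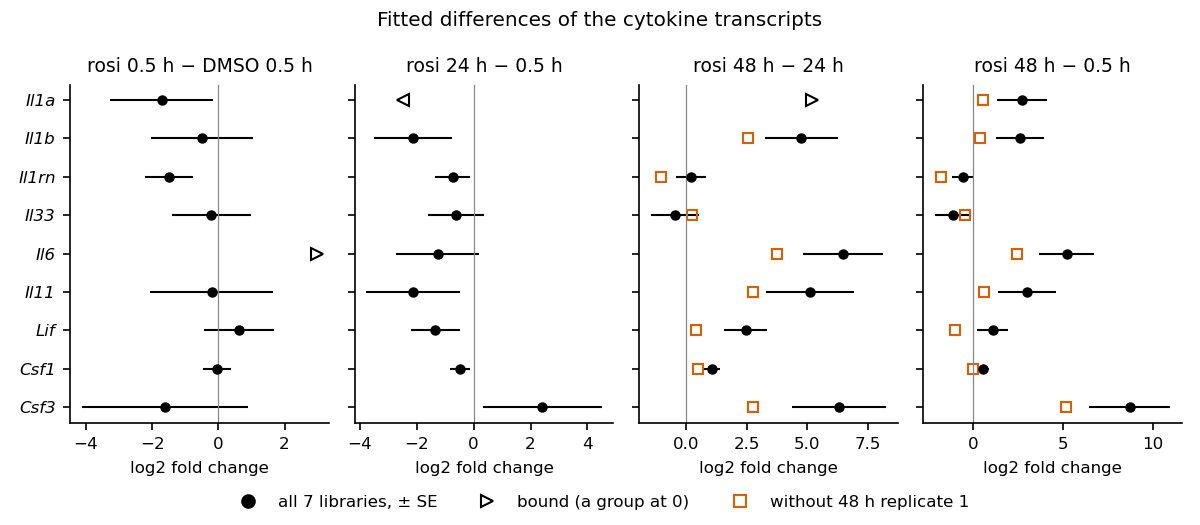
Log2 fold changes of the 9 tested cytokines in the 4 comparisons (edgeR, ± SE); open triangles are bounds where all libraries of a group were at 0, and open squares are the values without replicate 1 of 48 h. Between 48 h and 24 h 7 of the 9 values lie above 1 with all libraries, and every square lies below its value for those shown as points except Il33.

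In the authors' deposited table, 2 members passed an adjusted p of 0.05 between rosiglitazone and DMSO at 0.5 h (11% of its genes), Il1rn with a log2 fold change of -1.35 and Il6 with 0.57. The authors' deposited table for 24 h against 0.5 h had 3 (39%), with Il1a at -2.74, Lif at -1.22 and Csf1 at -0.45. For 48 h against 24 h the authors' deposited table had 6 (16.5%), all with higher levels at 48 h (6.99%). They were Il1a at 2.96, Il1b at 2.08, Il11 at 2.00, Lif at 1.70, Il6 at 1.45 and Csf1 at 0.98. The authors' log2 fold changes were smaller than those fitted here, for some members by much. Il6 for 48 h against 24 h had 1.45 there and 6.49 ± 1.65 (SE) in edgeR, so the sizes are not comparable. When the 2 splits of each library were entered as separate samples, edgeR called 0, 1, 7 and 6 members in the 4 comparisons (0.539%, 38.9%, 20% and 47.9% of the genes tested). Splits of 1 library, however, differed by no more than sampling noise and are not replicates. The authors deposited the counts of each split separately, and whether their tests joined the splits was not established here. Their SE for Il1rn at 0.5 h was 0.144, against 0.72 in edgeR.

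Receptors and signalling genes of these cytokines were read from 7 lists. In the comparison with DMSO and in both comparisons between neighbouring times, edgeR called none of the 77 list genes tested, of 86 listed. At an unadjusted p under 0.05 there were 3 for rosiglitazone against DMSO (0.607% of all genes), 13 for 24 h against 0.5 h (15.7%) and 18 for 48 h against 24 h (8.14%). DESeq2 called 0 (0.0108%), 10 (8.44%) and 10 (3.4%) in that order. Between 48 h and 0.5 h edgeR called 9 (6.59% of all genes). All 9 kept their direction but lost the call without replicate 1 of 48 h and without replicate 1 of 0.5 h, where 12 and 35 genes of the whole table passed, against 1031 with all libraries. Without replicate 2 of 0.5 h (95 genes) all but Il1rl1 and Cebpb lost it, and Casp4 lost it without replicate 2 of 48 h and Jak2 without the DMSO library. Markers of several cell types passed in the same comparison: 7 of 9 cardiomyocyte, 4 of 8 smooth muscle and pericyte and 4 of 8 epicardial markers fell. So did 3 of 8 endothelial and 3 of 14 macrophage markers. Of 9 fibroblast markers 1 passed, Dcn, which rose. Both 48 h libraries were above both 0.5 h libraries for 3 fibroblast markers (28.3% of all genes) and below them for 5 (34.4%). Their median log2 fold change was -1.28. The part of cell composition in the receptor values was not tested.

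Of 14 receptors and adaptors of the interleukin 1 family, edgeR called 1 between 48 h and 0.5 h, Il1rl1, which fell. That is near the share of all genes called (6.59%). Il1r1, which binds both agonists, had 339 and 191 CPM at 48 h and 227 and 187 CPM at 0.5 h, with overlapping groups. Its accessory chain Il1rap had 23.5 and 9.30 CPM at 48 h and 14.8 and 15.4 CPM at 0.5 h. The inhibitory kinase Irak3 had 150 and 59.8 CPM at 48 h and 51.4 and 47.1 CPM at 0.5 h, with an edgeR adjusted p of 0.192. The DMSO library had 71.7 CPM of Irak3, above replicate 2 of 48 h. Tollip, an adaptor that dampens this receptor, had 114 and 97.7 CPM at 48 h and 73.3 and 74.4 CPM at 0.5 h, with an adjusted p of 0.287.

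Of the 8 genes tested for processing of interleukin 1 and its relatives, edgeR called 1 between 48 h and 0.5 h (6.59% of all genes), which rose. Casp4, an inflammatory caspase that senses lipopolysaccharide, had 203 and 198 CPM at 48 h and 95.7 and 89.9 CPM at 0.5 h, a log2 fold change of 1.11 ± 0.24 (SE) with an edgeR adjusted p of 0.0391. Gsdmd, the pore-forming protein through which interleukin 1 leaves the cell, had 27.3 and 36.7 CPM at 48 h and 70.2 and 83.4 CPM at 0.5 h, with an adjusted p of 0.0608. Nlrp3, the inflammasome sensor, had 11.6 and 2.23 CPM at 48 h and 3.42 and 1.38 CPM at 0.5 h, with overlapping groups. The DMSO library had 4.70 CPM of Nlrp3.

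Of 14 gp130 receptor and JAK-STAT3 genes, edgeR called 1 between 48 h and 0.5 h, which rose. That is near the share of all genes called (6.59%). Jak2, a kinase bound to gp130, had 872 and 423 CPM at 48 h and 177 and 186 CPM at 0.5 h, a log2 fold change of 1.84 ± 0.41 (SE) with an edgeR adjusted p of 0.0441. The shared subunit Il6st had 506 and 335 CPM at 48 h, both above the 265 and 276 CPM at 0.5 h, with an edgeR adjusted p of 0.565. The DMSO library had 360 CPM of Il6st, above replicate 2 of 48 h. The ligand-binding chains differed: Il6r had 2.86 and 7.44 CPM at 48 h and 13.0 and 13.1 CPM at 0.5 h, and Lifr had 8.53 and 15.9 CPM at 48 h and 33.8 and 47.8 CPM at 0.5 h, with adjusted p of 0.202 and 0.0903. Il11ra1 overlapped, with 43.5 and 126 CPM at 48 h and 66.2 and 76.7 CPM at 0.5 h.

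Other gp130 cytokines were also counted. Clcf1, which signals through gp130 and Lifr, had 20.0 and 4.74 CPM at 48 h and 5.67 and 3.89 CPM at 0.5 h, with an adjusted p of 0.330. Ebi3, a subunit of interleukin 27, had 7.03 and 6.42 CPM at 48 h and 3.77 and 5.42 CPM at 0.5 h, with an adjusted p of 0.561.

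**Figure D4:**
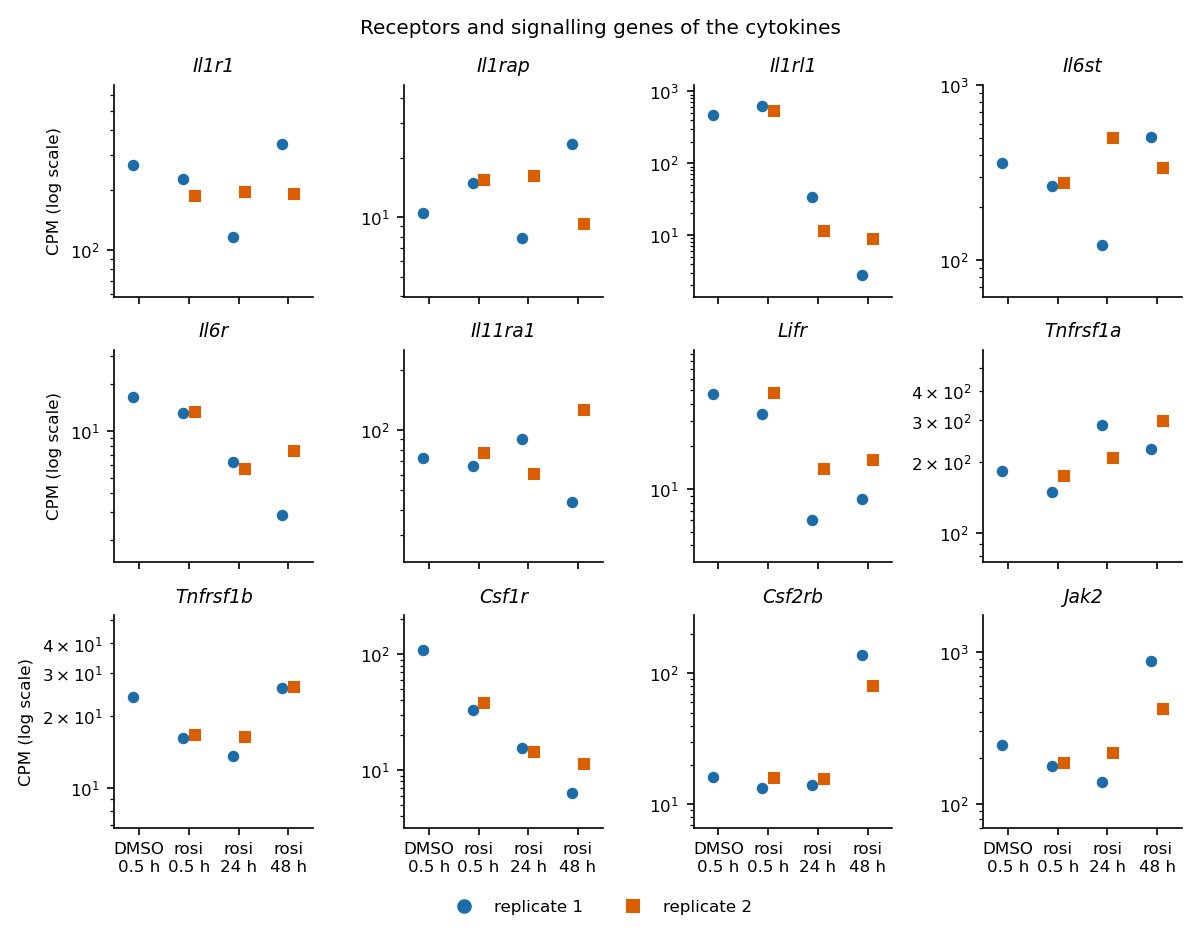
CPM (log scale) of 12 receptor and signalling genes in the 7 libraries, 1 for DMSO and 2 for each time of rosiglitazone. Il1rl1 lies at 462 to 623 CPM in the 3 early libraries and at 2.75 to 33.5 CPM in the 4 later ones, while Csf2rb and Jak2 are highest in both 48 h libraries.

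Of 10 colony-stimulating factor receptors and further ligands tested, 1 rose and 1 fell between 48 h and 0.5 h in edgeR (6.59% of all genes called). Csf2rb, the common beta chain of the receptors for Csf2, interleukin 3 and interleukin 5, had 16.2 CPM in the DMSO library, 13.2 and 15.8 CPM at 0.5 h, 14.1 and 15.7 CPM at 24 h, and 139 and 80.3 CPM at 48 h. Both 48 h libraries stood clear of the rest, with a log2 fold change of 2.92 ± 0.37 (SE) against 0.5 h and an edgeR adjusted p of 0.0118. Csf1r, the receptor of Csf1 and itself one of the 14 macrophage markers, had 109 CPM in the DMSO library, 33.4 and 37.8 CPM at 0.5 h, 15.5 and 14.3 CPM at 24 h, and 6.37 and 11.3 CPM at 48 h. It fell at 48 h relative to 0.5 h by 2.02 ± 0.37 on the log2 scale, with an adjusted p of 0.0246, so the ligand Csf1 and its receptor did not follow the same order of times. Csf2 had 6.66 and 0.837 CPM at 48 h and 0.282 and 0.363 CPM at 0.5 h, with an adjusted p of 0.254, and Csf3r had at most 0.582 CPM in any library.

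Of 13 TNF receptor and signalling genes tested, edgeR called 1 between 48 h and 0.5 h, which rose. That is near the share of all genes called (6.59%). Birc3, an inhibitor of apoptosis and a known NF-kB target, had 137 and 35.3 CPM at 48 h and 5.81 and 4.03 CPM at 0.5 h, a log2 fold change of 4.13 ± 0.70 (SE) with an edgeR adjusted p of 0.0199. Adam17, the protease that sheds TNF and its receptors, had 284 and 203 CPM at 48 h and 108 and 107 CPM at 0.5 h, with an adjusted p of 0.0581. Traf5, an adaptor of TNF family receptors, had 2.12 and 5.49 CPM at 48 h and 15.3 and 12.8 CPM at 0.5 h, with an adjusted p of 0.114.

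Of 12 STAT3 and acute-phase target genes tested, edgeR called 2 between 48 h and 0.5 h (6.59% of all genes), and both rose. Cebpb, a transcription factor of the acute-phase response, had 54.2 CPM in the DMSO library, 42.0 and 60.9 CPM at 0.5 h, 125 and 156 CPM at 24 h, and 343 and 325 CPM at 48 h. Its replicates at 48 h were close, the log2 fold change was 2.70 ± 0.30 (SE), and the edgeR adjusted p was 0.00926. Lcn2, the iron-binding protein lipocalin 2, had 1543 and 389 CPM at 48 h and 71.6 and 86.5 CPM at 0.5 h. Its log2 fold change was 3.61 ± 0.67 (SE), with an edgeR adjusted p of 0.0269, and 2.265 without replicate 1 of 48 h. Lcn2 had 146 CPM in the DMSO library and 218 and 115 CPM at 24 h, above both 0.5 h rosiglitazone libraries. Bcl3, a nuclear partner of NF-kB, had 36.7 and 23.9 CPM at 48 h and 11.8 and 10.2 CPM at 0.5 h, with an adjusted p of 0.0639. The Cebpb value changed little without replicate 1 of 48 h, at 2.62, but its adjusted p was then 0.0685, within a range of 0.000546 to 0.0825 when each library was left out in turn.

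The nearest profiles over the 7 libraries were read from Pearson's correlation of log2 CPM with genes of at least 5 CPM on average, as a description. Csf3 was nearest to Car2 (0.98), which had 66.0 and 25.9 CPM at 48 h and between 6.90 and 13.9 CPM elsewhere. Il6 was nearest to Cfap45 (0.98), Il1a to Orai2 (0.99) and Lif to Dgke (0.98). Csf1 was nearest to Hgf (0.98), hepatocyte growth factor, which had 48.5 and 16.2 CPM at 48 h and between 5.62 and 16.4 CPM elsewhere. Il11 was nearest to Csf1 (0.97), with Il1b also among its 3 closest neighbours (0.96). Among the 3 closest neighbours of Il33 was Vegfd (0.98), a growth factor of lymphatic vessels, which had 14.4 and 86.0 CPM at 48 h and 96.7 and 17.2 CPM at 24 h, low in the same 2 libraries. The libraries of a time share their culture conditions, and replicate 1 of 48 h weighs on every profile in which it is the highest.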

How the data were processed

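The authors deposited whole-number read counts per Ensembl gene for 7 libraries, each sequenced as 2 splits, in 3 tables that overlap, with their own log2 fold changes and p-values. Tools listed in the submitters' processing notes were HTSeq, DESeq2, cutadapt 1.11 and FastQC 0.11.5, with the build Rnor_6.0; neither aligner nor strand setting is stated there. Per the deposited tables, the p-values and log2 fold changes of the authors are quoted only where their table is named. The 2 splits of a library differed by no more than sampling noise (chi-square over its degrees of freedom between 0.964 and 1.02), and their counts were summed, giving 10886559 to 28074620 counts a library. Intervals and limits from 3 counts cover counting error only; reads carried no molecular identifiers.

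Genes were kept with edgeR's filterByExpr (15655 of 32545), and 4 groups were fitted together with TMM scaling and robust quasi-likelihood tests in edgeR 4.0.16 (R 4.3.3), with Benjamini-Hochberg adjustment over all genes and a threshold of 0.05; DESeq2 1.42.0 was an alternative. Of the members, 9 passed the filter. CPM are on TMM-scaled library sizes. The fit was tested on simulated counts with known changes. Named genes were all members, list genes past the threshold, up to 3 of each list with the smallest p and at least 1 CPM, and the members' receptors. Members and lists were chosen with earlier results of these data known. Of 165 list entries, 157 were matched by symbol, and the others were not used here. Coordinates and sequences are not given, since the reference names genes on another build. Of the list genes counted as called, 1 is not reported here by name, nor is 1 gene near a member in profile.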

Additional observations from a re-analysis of the deposited data

How the results depend on the processing

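Depth limits the values that rest on few reads, such as the 12 to 51 reads of Il1a, Il1b, Il6, Il11 and Csf3 in replicate 2 of 48 h. The number of genes called depended on the fit. For rosiglitazone against DMSO at 0.5 h it was 0, against 2 with DESeq2, 1 without a filter, 78 with splits as separate samples and 174 with only the 2 groups. For 24 h against 0.5 h it was 15, against 1259 with DESeq2, 334 without a filter, 5629 with splits, 0 with only the 2 groups, and 0 to 1008 when 1 library was left out. For 48 h against 24 h it was 0, against 507 with DESeq2, 19 without a filter, 2890 with splits, and 0 to 509 with 1 library left out. For 48 h against 0.5 h it was 1031, against 2569 with DESeq2, 6943 with splits, 2733 with only the 2 groups, and 12 (without replicate 1 of 48 h) to 2706 (without replicate 1 of 24 h); it was also under 100 without either 0.5 h library (35 and 95).

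Members called, 0 with all libraries in edgeR, were 1 for rosiglitazone against DMSO with only the 2 groups, 1 for 24 h against 0.5 h with DESeq2 and with splits, 3 with DESeq2 and 7 with splits for 48 h against 24 h, and 1 with DESeq2 and 6 with splits for 48 h against 0.5 h. No other size factor or filter changed a call of a member. Replicate numbers did not pair the libraries: their differences correlated at -0.08, 0.06 and -0.12 across genes between times. With the replicate number as a block, 1 gene passed for 24 h against 0.5 h and 407 for 48 h against 0.5 h, where 1 member passed (Csf3, 8.96) and Casp4, Jak2 and Csf1r did not; the block turned the values of rosiglitazone against DMSO at 0.5 h to 1.10 for Il1b, 1.28 for Il11 and 0.18 for Csf1.

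Some log2 fold changes not called with all libraries in edgeR turned sign when 1 library was left out; of these, Csf1 for 48 h against 0.5 h was called with splits as separate samples. For rosiglitazone against DMSO at 0.5 h, Il1b ranged between -1.28 and 0.024, Il11 between -0.69 and 0.16, and Csf1 between -0.23 and 0.10. For 24 h against 0.5 h, Il33 ranged between -2.42 and 0.13 and Csf3 between -4.69 and 7.05. For 48 h against 24 h, Il1rn ranged between -1.03 and 0.86 and Il33 between -1.88 and 1.30. For 48 h against 0.5 h, Il1rn ranged between -1.78 and 0.091, Lif between -0.98 and 1.92, and Csf1 between -0.009 and 0.96. The cause of these changes was not tested.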

Other observations

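Further genes of these pathways, singled out after their values were seen, are given as values. Il34, the other ligand of Csf1r, had 5.73 CPM in the DMSO library, 2.78 and 2.98 CPM at 0.5 h of rosiglitazone, 1.31 and 0.339 CPM at 24 h, and 0 and 1.77 CPM at 48 h, so its order over the times was unlike that of Csf1. Casp1, the protease that matures Il1b, had 7.50 CPM in the DMSO library, 3.45 and 3.49 CPM at 0.5 h, 2.40 and 0.0377 CPM at 24 h, and 1.83 and 1.12 CPM at 48 h, below the DMSO library in all 6 others. Il18, another substrate of caspase 1, had 4.63 CPM in the DMSO library, 1.30 and 3.56 CPM at 0.5 h, 1.27 and 0.791 CPM at 24 h, and 1.21 and 2.79 CPM at 48 h. For Il18, replicate 2 of 48 h lay inside the range of 0.5 h and replicate 1 just below it. Against 24 h, replicate 2 of 48 h lay above both Il18 values and replicate 1 between them. For Il1b, Il6 and Csf3, both 48 h libraries were above both 24 h libraries, and replicate 2 of 48 h lay inside the 0.5 h range of Il1b.

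Socs3, the feedback inhibitor that STAT3 induces, had 5.73 CPM in the DMSO library, 3.80 and 6.83 CPM at 0.5 h, 5.12 and 7.73 CPM at 24 h, and 8.60 and 18.6 CPM at 48 h. Its higher 48 h value was in replicate 2, where Il6, Il11 and Lif were the lower of the pair. Osm, another gp130 cytokine, had at most 0.740 CPM in any library.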
